A study of Homo sapiens with 6 samples.

Results

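Long intergenic non-coding RNA genes, named LINC with a number, were compared between RIPK4 knockout and control cells of A375, a human melanoma cell line. Members were chosen by symbol, LINC followed by digits alone, and by level, a raw count that averaged at least 5 over the 6 libraries, without use of the difference between groups. This rule kept 266 of the 524 LINC genes listed, out of 20851 listed genes of all kinds. Polyadenylated RNA had been sequenced in 3 libraries of each group, called biological replicates by the study. A375RIPK4.KO cells carried a RIPK4 knockout made with CRISPR/Cas9 and were 1 clone, so the spread between libraries does not cover differences between clones. A375neg cells, labelled GFP control, had received a nontargeting guide RNA. Both groups were grown in the same serum-containing medium. The comparison asked how loss of RIPK4, a serine/threonine kinase, altered transcript levels.

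LINC genes give spliced, usually polyadenylated transcripts that carry no long open reading frame and lie, by their naming, between protein-coding genes. They tend to be rarer and more cell type restricted than messenger RNAs. Some act in trans as scaffolds or sponges for proteins and small RNAs, others act on genes nearby, and for many no function is known.

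RIPK4 itself had 319, 368 and 404 raw counts in the A375neg libraries and 42, 51 and 61 in the A375RIPK4.KO libraries. The log2 fold change was -2.69 (SE 0.17, n = 3 per group, edgeR adjusted p = 1.01e-05), so the labels held. The libraries held 21882863 to 26694140 counts, a depth at which 3 counts equal 0.113 to 0.134 CPM (counts scaled to library size). Across genes, libraries of 1 group correlated at r = 0.982 to 0.988 and libraries of different groups at 0.958 to 0.968. Of 10 melanocytic markers 6 were analysed here, with a summed normalized count of 9450 to 10200 in A375neg and 8160 to 8570 in A375RIPK4.KO, nearly all of it SOX10. PMEL, a pigment protein, had at most 22 counts, and S100B was called lower. MITF had 500, 440 and 535 counts against 326, 288 and 376 (log2 fold change -0.44, edgeR adjusted p = 0.0449). Its change lay under the 1.5-fold limit for a call. The 4 markers of undifferentiated melanoma cells summed to 16400 to 17300 against 16800 to 18400, most of it AXL. NGFR, at 192, 173 and 209 counts against 12, 21 and 31 (log2 fold change -3.03), and WNT5A (-1.19) were called lower. AXL and EGFR, at log2 fold changes of 0.18 and 0.22, were not called. Among markers of other cell types, 2 keratinocyte markers were analysed, with KRT14 called lower and KRT5 at 11 counts or fewer in every library. Their summed normalized count was 469 to 569 in A375neg and 140 to 168 in A375RIPK4.KO. That of 3 leukocyte markers was 38.7 to 49.3 against 0 to 17.5, with LYZ called lower and PTPRC at 3 counts or fewer in every library. The 4 endothelial markers summed to 300 to 406 against 439 to 482, with PECAM1 called lower and KDR higher, and the 5 fibroblast markers summed to 267 to 309 against 240 to 263, with none called. All libraries came from cultures of the A375 line, so these markers do not count cells of other types. In bulk RNA, fewer cells that express a gene and less RNA per cell cannot be told apart, and neither was tested.

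LINC transcripts were a small share of the RNA. The 266 members together took 0.0971% to 0.101% of the counts of an A375neg library. The A375RIPK4.KO libraries were at 0.112%, 0.0958% and 0.106%, so the ranges of the groups overlapped through A375RIPK4.KO replicate 2 alone. The median member averaged 23.2 raw counts, against 707 for a tested protein-coding gene. A mean of 5 to 20 counts was found for 125 members, 20 to 100 for 83 and at least 100 for 58. At the limit of the rule, the 5 lowest members averaged 5.0 to 5.33 counts and the 5 genes just outside it all averaged 4.83. Per kilobase of exon, the median was 19.6 normalized counts over the 168 tested LINC genes with a known exon length and 131.0 over 12006 tested protein-coding genes.

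A few LINC genes reached the level of messenger RNAs. LINC01029 was the most abundant, at 1020, 1020 and 946 normalized counts per kb in A375neg and 1450, 1320 and 1400 in A375RIPK4.KO. The groups did not overlap, but the log2 fold change of 0.48 (SE 0.06, adjusted p = 0.000863) lay under the 1.5-fold limit used for a call. LINC00674 followed with a mean of 581 normalized counts per kb over all libraries. LINC00508 had 552, a value resting on an annotated exon length of only 194 bases that may not cover the whole transcript. LINC01293 (422), LINC00623 (241), LINC00707 (227), LINC01004 (195) and LINC02088 (181) completed the 8 highest. LINC01293 shares its RefSeq gene with LINC01291, and LINC00623 lies among the duplicated NBPF genes of chromosome 1, so reads of both may be split between copies. Of these 8, LINC00674 and LINC00508 were called changed.

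A LINC gene was called changed where the adjusted p was under 0.05 and the level rose or fell at least 1.5-fold. Of the 266 members, 201 had enough counts to be tested and 65 did not. The lowest mean among tested members was 7.5 counts and the highest among the others was 10.3. Calls were made for 26 members, 12 higher and 14 lower in A375RIPK4.KO, which is 12.9% of those tested. Over all 14443 tested genes 9.04% were called, 4.39% higher and 4.65% lower. The share was 9.26% for protein-coding genes and 7.99% for long non-coding RNA genes with other names. The A375neg and A375RIPK4.KO counts did not overlap in 63 tested members (31.3%, against 36.5% of all tested and 38.8% of protein-coding genes), including all 26 called. The exact permutation test of 3 against 3 libraries can give no p below 0.1 for a single gene, so calls rest on the edgeR fit across genes.

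In the median, fold changes of LINC genes were wider than those of protein-coding genes and less precise. Their median absolute log2 fold change was 0.36 with a median SE of 0.31, against 0.16 and 0.10 for protein-coding genes. A fitted change of at least 1.5-fold was found in 31.3% of tested members in 16.4% of all tested genes and in 14.0% of protein-coding genes, yet an adjusted p under 0.05 at any fold was reached by 14.9% and 18.0%, beside 16.6% of all tested genes. There was no common direction, with 104 positive and 97 negative values and a median of 0.03. In 33 members the mean of 1 group lay under 5 counts, so they met the rule only through the other group. Of these, 4 were called, LINC00899, LINC01777, LINC00239 and LINC01239.

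**Figure D1:**
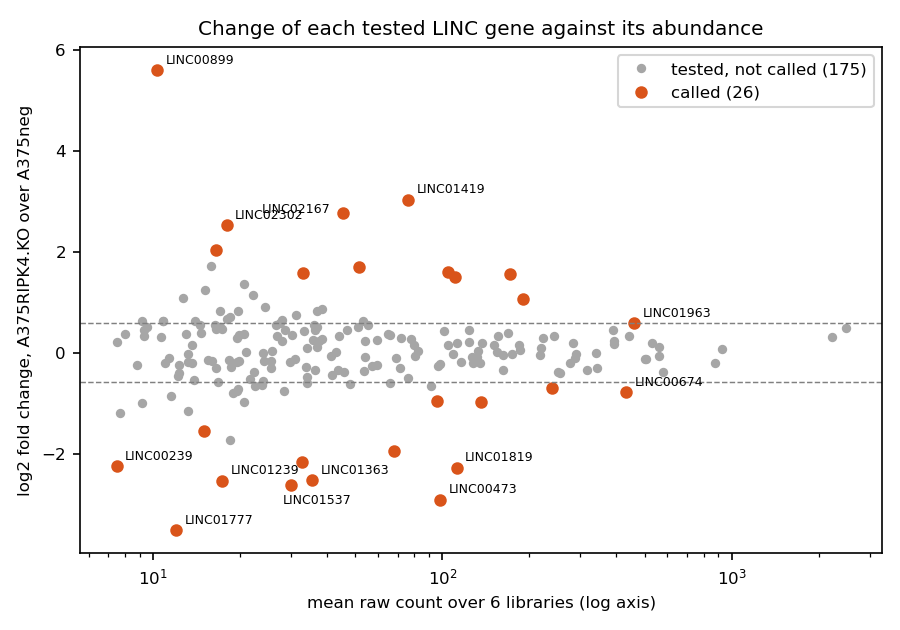
Log2 fold change of A375RIPK4.KO over A375neg against the mean raw count over 6 libraries (log axis) for the 201 tested LINC genes, with the 26 called in orange and dashed lines at 1.5-fold. Changes spread to both sides of 0 and the widest fell below 100 counts. The position of LINC00899, with 1 count in all A375neg libraries, depends on the prior count of the fit.

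Calls were also read by abundance, and these shares were not tested against each other. Of LINC genes with a mean of 5 to 20 counts 11.7% were called, with 20 to 100 counts 12% and with at least 100 counts 15.5%. The protein-coding shares were 14.4%, 21.6% and 7.14%, and those of other long non-coding RNA genes 5.59%, 8.28% and 11.7%. The LINC shares were the most even across abundance.

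**Figure D2:**
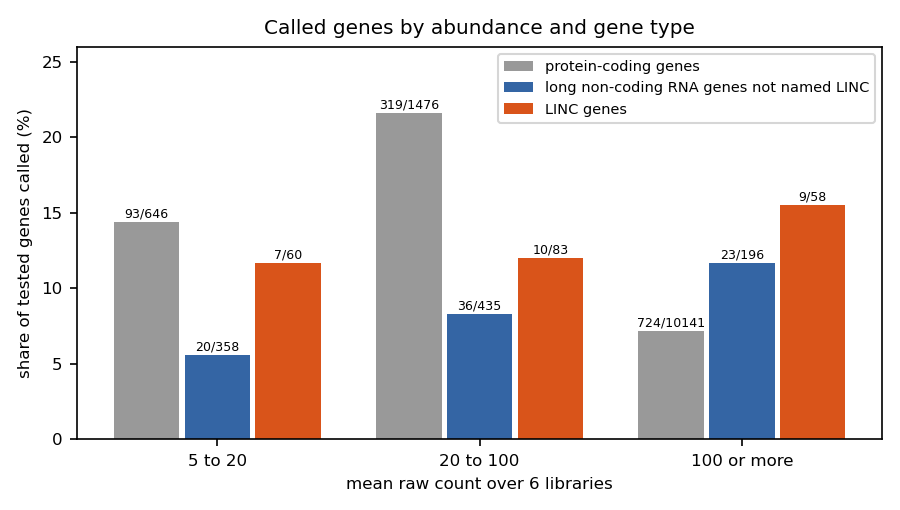
Percentage of tested genes called changed (bars from 0) by mean raw count and gene type, with called over tested genes printed above each bar. The bars of LINC genes lie between 11.7% and 15.5%, while those of protein-coding genes range from 7.14% to 21.6%.

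Among LINC genes that fell, LINC00473 combined a large change with a narrow spread. It is a primate-specific transcript known to be induced through cAMP and the transcription factor CREB. It had 143, 201 and 182 counts in A375neg and 22, 21 and 20 in A375RIPK4.KO. All knockout libraries were near 20 counts and far below the controls. The log2 fold change was -2.91 (SE 0.21, n = 3 per group, adjusted p = 2.29e-05). LINC00473 (chr6:165924048-165988039, GRCh38.p14, minus strand) overlaps PDE10A, which encodes a cyclic nucleotide phosphodiesterase, on the same strand, and the start sites are 13 bases apart. PDE10A had 159, 119 and 121 counts against 97, 72 and 88 (log2 fold change -0.50, adjusted p = 0.158). Reads of exons that both genes share could not be assigned to one of them.

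The LINC00473 promoter, 250 bases before to 50 after the start (chr6:165987990-165988289, GRCh38.p14, minus strand, RefSeq), is shown because of this regulation by cAMP. Capitals mark the core of the cAMP response element, TGACG or on the other strand CGTCA, a motif searched after the values had been seen.

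LINC00473: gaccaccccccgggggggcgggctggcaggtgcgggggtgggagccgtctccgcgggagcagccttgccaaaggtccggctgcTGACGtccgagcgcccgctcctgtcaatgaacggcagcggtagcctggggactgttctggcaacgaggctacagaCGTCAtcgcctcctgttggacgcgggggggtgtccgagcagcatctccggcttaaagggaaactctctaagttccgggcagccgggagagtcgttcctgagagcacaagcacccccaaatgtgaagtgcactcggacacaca

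The core occurred 167 and 92 bases before the start of LINC00473. It was found in 6828 of all 27305 promoters and in 34 of the 166 LINC promoters (20.5%), and the full element TGACGTCA, which contains both words, in 1.98% and 1.81%, but not in that of LINC00473.

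LINC01819 (chr2:43027853-43039556) had 159, 218 and 191 counts in A375neg and 31, 41 and 34 in A375RIPK4.KO. The groups were widely apart, with a log2 fold change of -2.28 (SE 0.20, adjusted p = 7.28e-05). LINC01537 (chr11:72570656-72573222) had 40, 54 and 63 counts against 3, 10 and 10, a log2 fold change of -2.62 (SE 0.41, adjusted p = 0.00228). LINC01363 (chr1:167175362-167195805) had 59, 70 and 55 against 2, 12 and 15, a log2 fold change of -2.53 (SE 0.47, adjusted p = 0.00608). In both, the knockout libraries were low but differed among themselves. LINC01301 (chr8:60402171-60413818) had 52, 64 and 48 against 13, 13 and 7, a log2 fold change of -2.16 (SE 0.33, adjusted p = 0.002). LINC01992 (chr17:27928924-27991707) had 107, 85 and 138 against 24, 23 and 31, a log2 fold change of -1.95 (SE 0.26, adjusted p = 0.000919). The lowest control library of LINC01992 still held 85 counts against 31 in the highest knockout library.

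Smaller decreases were found in abundant members. LINC00674 (chr17:68101555-68135929) had 527, 602 and 566 counts against 327, 257 and 309, a log2 fold change of -0.79 (SE 0.12, adjusted p = 0.00163). LINC00326 (chr6:133088080-133106578) had 306, 316 and 297 against 164, 182 and 169, a log2 fold change of -0.70 (SE 0.12, adjusted p = 0.00392). LINC00869, also among the NBPF copies of chromosome 1, had 118, 140 and 135 against 50, 71 and 63, a log2 fold change of -0.96 (SE 0.19, adjusted p = 0.00771). The 3 genes were tight within groups and differed 1.62-fold to 1.94-fold. LINC02584 (chr11:70072434-70075348) had 159, 204 and 192 against 52, 107 and 99, a log2 fold change of -0.97 (SE 0.24, adjusted p = 0.0249). Its call was lost without any 1 of the A375neg libraries (-1.04, -0.92 and -0.95) or without A375RIPK4.KO replicate 3 (-1.06).

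The other members that fell were rare. LINC01777 had 26, 20 and 21 counts in A375neg and 2, 2 and 1 in A375RIPK4.KO (log2 fold change -3.52, SE 0.52, adjusted p = 0.00162). LINC01239 had 33, 24 and 33 against 1, 3 and 10 (-2.53, SE 0.58, adjusted p = 0.0167), its call was lost without A375neg replicate 1 (-2.43) or 3 (-2.47), and the value was -3.68 without A375RIPK4.KO replicate 3. With 11, 12 and 15 against 2, 4 and 1 counts, LINC00239 passed narrowly (-2.25, adjusted p = 0.0340). LINC00886 had 16, 25 and 28 against 8, 7 and 6 (-1.56, adjusted p = 0.0275). The calls of LINC00239 and LINC00886 were each lost in 5 of the 6 fits that left out a library, with log2 fold changes of -2.84 to -1.88 and -1.73 to -1.39 over these fits. LINC00239 stayed called only without A375RIPK4.KO replicate 2, and LINC00886 only without A375neg replicate 1.

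**Figure D3:**
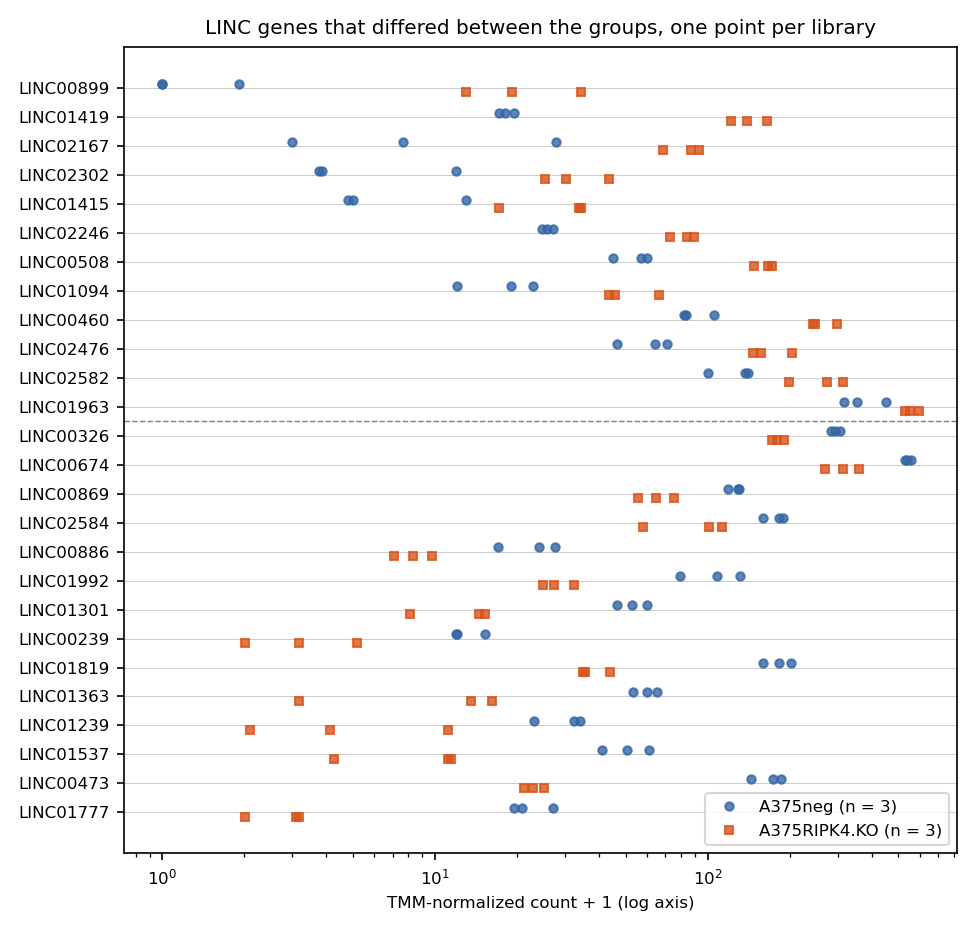
Normalized counts plus 1 (log axis) of the 26 called LINC genes, 1 point per library, circles for A375neg and squares for A375RIPK4.KO, ordered by fold change with the 12 higher genes above the dashed line. Circles and squares did not overlap in any row, and the rows with wide spread were LINC02167, LINC02302, LINC01415, LINC01239 and LINC01363.

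Among LINC genes that rose, LINC01419 (chr8:83403758-83408900) had 17, 20 and 17 counts in A375neg and 127, 157 and 119 in A375RIPK4.KO. The controls were almost identical and the knockout libraries 8.16-fold higher on the fitted scale, a log2 fold change of 3.03 (SE 0.22, n = 3 per group, adjusted p = 2.85e-05). LINC02246 (chr21:14816838-14918668) had 26, 27 and 25 against 76, 69 and 87, a log2 fold change of 1.70 (SE 0.22, adjusted p = 0.000801). LINC00508 (chr12:127883989-127983891) had 44, 61 and 62 against 157, 141 and 163, a log2 fold change of 1.60 (SE 0.19, adjusted p = 0.000464). LINC02476 (chr7:119619430-119907375) had 63, 76 and 48 against 185, 149 and 144, a log2 fold change of 1.49 (SE 0.22, adjusted p = 0.00183). In each of these 4 genes the lowest knockout library was well above the highest control.

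LINC00460, described in many carcinomas, had 82, 88 and 110 counts in A375neg and 221, 285 and 244 in A375RIPK4.KO, a log2 fold change of 1.56 (SE 0.17, adjusted p = 0.00028). LINC01094 (chr4:78645994-78684501) had 18, 12 and 23 against 60, 43 and 42, a log2 fold change of 1.58 (SE 0.34, adjusted p = 0.0115). Both groups of libraries were separate in each gene, with the wider relative spread in LINC01094. Promoters were given for 13 of the 26 called members, and these 2 genes were the members among them that held an AP-1 element. That is 15.4%, beside 11.4% of all LINC promoters, and the 2 genes were picked out after the values had been seen. AP-1 is a dimer of FOS and JUN proteins that responds to growth factor and stress signals. Both promoters (LINC00460, chr13:106376314-106376613, and LINC01094, chr4:78645744-78646043, both GRCh38.p14, plus strand, RefSeq) are shown for that, with the element TGACTCA or on the other strand TGAGTCA in capitals.

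LINC00460: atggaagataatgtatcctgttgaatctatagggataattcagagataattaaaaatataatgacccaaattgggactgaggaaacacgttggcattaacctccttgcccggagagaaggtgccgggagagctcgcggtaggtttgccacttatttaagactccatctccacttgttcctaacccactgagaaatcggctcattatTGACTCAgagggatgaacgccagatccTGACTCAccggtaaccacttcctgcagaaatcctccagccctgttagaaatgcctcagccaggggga

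LINC01094: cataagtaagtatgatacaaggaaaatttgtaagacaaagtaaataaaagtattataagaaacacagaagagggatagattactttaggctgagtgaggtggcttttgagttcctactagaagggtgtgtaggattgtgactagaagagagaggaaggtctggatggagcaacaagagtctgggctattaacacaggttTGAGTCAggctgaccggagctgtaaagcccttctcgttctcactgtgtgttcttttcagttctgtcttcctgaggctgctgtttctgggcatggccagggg

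The AP-1 words lay 44 and 17 bases before the start of LINC00460 and 51 bases before that of LINC01094. They occurred in 19 of 166 LINC promoters (11.4%) and in 4.92% of all 27305 promoters, a difference that was not tested. Neither the E-box CACGTG (7.23% of LINC promoters, 7.43% of all) nor the TATA box TATAAA or TTTATA (13.9% and 12%) was found in the promoter of a called member. Motifs were searched on both strands, and the full cAMP element and AP-1 words do not overlap. LINC promoters had a median GC content of 53.8%, against 65.3% for tested protein-coding genes. It was 54.3% in the 113 tested LINC members that were not called. Of the called members with a promoter, the 8 called lower had 64.2% and the 5 called higher 46.7%. These differences were not tested and cover only part of the 14 lower and 12 higher members.

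LINC02582 (chr18:73324941-73349889) had 99, 151 and 143 counts against 249, 189 and 307, a log2 fold change of 1.06 (SE 0.21, adjusted p = 0.00783). LINC01963 (chr2:216216889-216220192), a transcript of 1 exon, had 314, 381 and 474 against 483, 529 and 587, a log2 fold change of 0.59 (SE 0.13, adjusted p = 0.016). The highest control and the lowest knockout library of LINC01963 were at 449 and 528 normalized counts, and its call was lost without A375neg replicate 1 (0.48), A375neg replicate 2 (0.55) or A375RIPK4.KO replicate 3 (0.54).

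LINC00899 was at the limit of detection in control cells. It had 0, 1 and 0 counts in A375neg and 11, 32 and 18 in A375RIPK4.KO (adjusted p = 0.00259). The depth-corrected ratio of 61 to 1 counts was 67.0, with an exact 95% interval of 11.6 to 2690 that covers counting error only. LINC02167 had 2, 29 and 7 counts against 62, 82 and 91, a log2 fold change of 2.77 (SE 0.61, adjusted p = 0.0142). One control library stood well above the other controls, and the value was 4.19 without it (A375neg replicate 2), while the call was lost without A375neg replicate 3 (2.48). LINC02302 had 11, 3 and 3 against 39, 28 and 24, a log2 fold change of 2.52 (SE 0.54, adjusted p = 0.0122), lost without A375neg replicate 2 (2.20) or 3 (2.22) and at 3.46 without A375neg replicate 1. LINC01415 had 4, 13 and 4 against 30, 32 and 16, a log2 fold change of 2.02 (SE 0.53, adjusted p = 0.0302), lost without A375neg replicate 1 (1.78) or 3 (1.75) or A375RIPK4.KO replicate 1 (1.88) or 2 (1.86), and at 2.78 without A375neg replicate 2. In these 3 genes 1 control library held most of the control counts, and no control reached the lowest knockout library.

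A list of 28 LINC genes described in tumours was read from the same fit. Of these, 19 were members and all 19 were tested. LINC00460 rose and LINC00473 fell, 1 call each way, beside 9.04% of all tested genes and 12.9% of tested LINC genes called. The median log2 fold change of the list was -0.003, beside -0.005 over all genes tested. LINC00665 had 373, 349 and 315 counts against 410, 466 and 414 (log2 fold change 0.45, adjusted p = 0.0275). LINC00707 had 2065, 2254 and 1964 against 2396, 2119 and 2528 (0.30, adjusted p = 0.0340). Both passed the adjusted p and lay under the fold limit. LINC00511, LINC00673, LINC00941, LINC01116, LINC01234, LINC00857, LINC00467, LINC00662, LINC00888 and LINC00839, all abundant at more than 100 counts on average, had log2 fold changes of -0.21 to 0.44. None of them was called, nor was LINC00963 (-0.35). Of 20 tumour-associated long non-coding RNA genes with other names, 14 were tested, with a median log2 fold change of -0.13. Here too 1 was called each way, beside the same 9.04% of all tested genes. UCA1 fell from 205, 209 and 206 counts to 74, 81 and 76 (-1.29, adjusted p = 0.000399), and MIR31HG, the host transcript of miR-31, rose from 195, 230 and 186 to 357, 436 and 387 (1.09, adjusted p = 0.00039). SNHG5 (-0.49, adjusted p = 0.0172) and GAS5 (-0.35, adjusted p = 0.0253), both snoRNA host transcripts, passed the adjusted p under the fold limit. SAMMSON, a melanoma lineage transcript, had 32, 35 and 29 counts against 32, 24 and 28 (-0.05, adjusted p = 0.916).

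The nearest protein-coding gene was taken by the gap between gene bodies. Of the 266 members, 16 (6.02%) overlapped a protein-coding gene, 8 on the same and 8 on the opposite strand, 123 lay within 50 kb and 127 farther away. The median gap was 42.5 kb, and 80.4 kb for called members. In 178 pairs both genes were tested, and in 111 (62.4%) both fold changes had the same sign. The value was 54.4% for protein-coding genes with their nearest protein-coding gene and 535 of 892 pairs agreed in sign for other long non-coding RNA genes. Over all tested LINC pairs, called or not, it was 61.8% within 50 kb and 62.9% beyond. Among called LINC genes it was 77.8% (7 of 9) within 50 kb and 64.3% (9 of 14) beyond. The same 2 shares were 61.8% and 51.7% for called protein-coding genes and 79.1% and 55.0% for other called long non-coding RNA genes. The effect of distance was not tested. By orientation, signs matched in 55 of 94 same-strand pairs, 28 of 43 divergent pairs and 28 of 41 convergent or antisense pairs.

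A neighbour was tested for 23 of the 26 called LINC genes, and 16 of them (69.6%) had its sign, against 58.9% of called protein-coding genes and 71.4% of other called long non-coding RNA genes. In 5 of the 23 pairs (21.7%) the neighbour was also called, each time in the same direction. A call in the same direction was found for the neighbours of 9.75% of called protein-coding genes and of 25.4% of other called long non-coding RNA genes. These shares were not tested against each other. Only 2 of the 5 pairs were within 50 kb, where 9 called LINC genes had a tested neighbour and the share for protein-coding genes was 11.0%.

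LINC02584 lies inside ANO1, a calcium-activated chloride channel gene, on the opposite strand. ANO1 fell from 1164, 1340 and 1328 counts to 356, 401 and 351, a log2 fold change of -1.65 (SE 0.08, adjusted p = 3.42e-06), a larger change than the -0.97 of LINC02584. Whether counting used strand is not given in the sources used here, and without it reads of these genes could not be told apart. LINC01094 starts 35547 bases past the end of ANXA3, which encodes an annexin. ANXA3 had 32, 47 and 24 counts against 59, 72 and 62 (1.04, SE 0.28, adjusted p = 0.0317), and its call was lost in 5 of 6 fits that left out a library, at 0.84 to 1.09, but not without A375neg replicate 2 (1.30). LINC00326 lies 134015 bases from EYA4, a transcriptional coactivator gene with 982, 1138 and 1192 counts against 647, 544 and 697 (-0.67, SE 0.10, adjusted p = 0.00194), which fell under the fold limit without A375RIPK4.KO replicate 2 (-0.57). LINC01239 lies 190460 bases from DMRTA1, a DM-domain transcription factor gene with 98, 118 and 119 counts against 41, 39 and 48 (-1.25, SE 0.19, adjusted p = 0.0021). LINC02582 lies 456954 bases from NETO1, an auxiliary subunit gene of glutamate receptors with 6, 6 and 8 counts against 89, 84 and 88 (3.82, SE 0.27, adjusted p = 2.11e-05). LINC02864, which lies between them at 60.4 kb from LINC02582, had a log2 fold change of 0.05 (adjusted p = 0.85) and was not called.

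**Figure D4:**
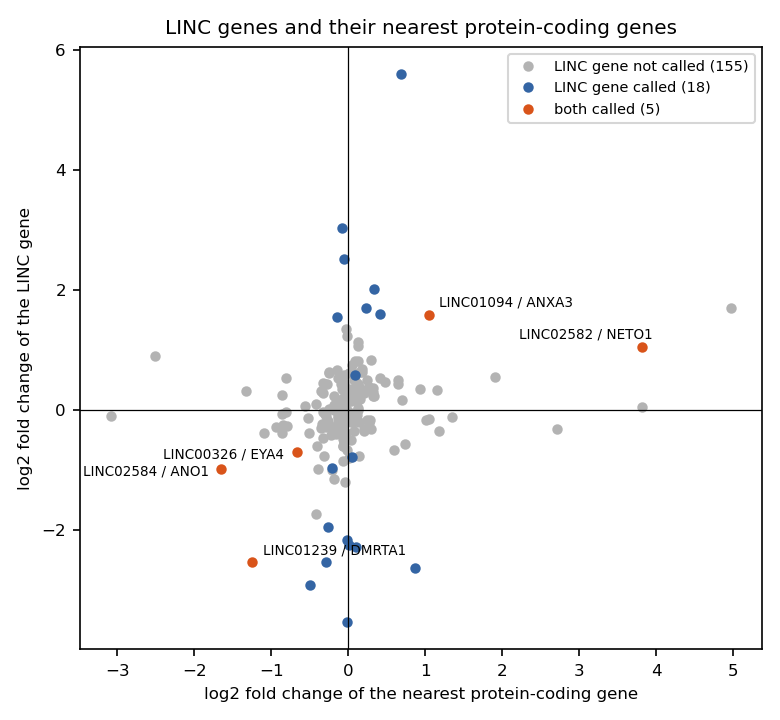
Log2 fold change (A375RIPK4.KO over A375neg) of 178 LINC genes against that of the nearest protein-coding gene. The 5 pairs with both genes called (orange) lie in the lower left and upper right. The 18 other called LINC genes (blue) lie between -0.50 and 0.87 on the horizontal axis.

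Several of the strongest changes had no called neighbour. LINC01419 lies 1561573 bases from SNX16, which had a log2 fold change of -0.08, LINC00460 lies 111150 bases from EFNB2 (-0.15) and LINC01819 lies 182846 bases from ZFP36L2 (0.10). LINC01537 ends 2919 bases from PDE2A, which had 6, 13 and 16 counts against 22, 18 and 18 (0.87, adjusted p = 0.2), the opposite sign. The other way round, of 155 members tested but not called, 21 (13.5%) had a called neighbour, as had 7 of 50 members too rare to be tested, beside 9.26% of protein-coding genes called. LINC02577, for example, chosen after its values were seen, lies 26800 bases from PIK3CG, a lipid kinase gene with 0, 2 and 4 counts in A375neg and 52, 71 and 59 in A375RIPK4.KO. LINC02577 itself had 1, 16 and 7 counts against 30, 25 and 16 (log2 fold change 1.71, adjusted p = 0.108).

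All protein-coding genes within 500 kb were then read, a window chosen after the data had been seen. Near the 26 called LINC genes 17 of 114 tested genes were called (14.9%), and near tested LINC genes that were not called 82 of 888 (9.23%). The 17 genes lay near 11 called members, and 12 of them moved in the direction of their LINC gene, with no background share given. Both counts include the 5 called nearest neighbours given above (ANO1, ANXA3, EYA4, DMRTA1 and NETO1). The window therefore repeats part of that result and is not separate from it. LINC00674 had 3, SLC16A6, WIPI1 and ARSG, which fell as it did. SLC16A6, a monocarboxylate transporter family gene, had 79, 101 and 87 counts against 9, 6 and 12 (-3.15), while the nearest gene KPNA2 had a log2 fold change of 0.04. LINC01963 also had 3, IGFBP5, IGFBP2 and TMEM169, which all moved against it. IGFBP5, an insulin-like growth factor binding protein gene, fell from 360, 450 and 491 counts to 21, 26 and 25 (-4.03) while LINC01963 rose. LINC01094 had PAQR3 besides ANXA3, at 811, 1002 and 886 against 1454, 1430 and 1547 counts (0.85). LINC00899 had FBLN1, an extracellular matrix gene, at 34, 37 and 58 against 90, 134 and 100 (1.46). LINC00473 had RPS6KA2, which rose (1.02) while LINC00473 fell.

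Closely spaced members were compared last. Of 13 pairs of LINC genes within 100 kb of each other, both genes were tested by edgeR in 7, and in none of these were both called or both at an unadjusted p under 0.05. The other 6 pairs held a member too rare for the edgeR test, and DESeq2, which took all members, called both genes in none of the 13. In 1 of the 6, the overlapping LINC00652 and LINC00653 on opposite strands, counts of both were low and separate between the groups, at 10, 12 and 11 against 2, 4 and 7 for LINC00652 and at 18, 21 and 8 against 6, 6 and 1 for LINC00653. LINC00652 had a log2 fold change of -1.19 (adjusted p = 0.184). Of 8 members that start within 1 kb of a protein-coding gene on the opposite strand and are transcribed away from it, 3 were tested and none was called by edgeR or DESeq2. LINC00205 beside POFUT2 had the 1 unadjusted p under 0.05 (0.0193), with a log2 fold change of -0.30 (POFUT2 -0.35). LINC00449 beside TM9SF2 had 0.50 (0.64) and LINC01521 beside PATZ1 -0.20 (0.14). TM9SF2 was itself called higher (edgeR adjusted p = 0.000194).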

How the data were processed

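RNA-seq of polyadenylated, strand-specific libraries gave 1 table of raw counts per gene, deposited by the authors without normalization. The submitters' processing notes name cutadapt, FastQC, HISAT2, HTSeq, DESeq2 and GRCh38.p13, with no roles. The authors also deposited normalized counts (a signal, raw counts over 1 size factor per library) and, from their own DESeq2 test, fold ratios, log2 fold changes, Wald scores and p-values, none of which was used. Whole-table counts were fitted in R 4.3.3 with edgeR 4.0.16 (quasi-likelihood test after TMM scaling and filterByExpr, with p-values adjusted by Benjamini-Hochberg across every gene tested), after a test on simulated data. Normalized counts are raw counts over the TMM-scaled library size relative to the mean. Gene bodies came from RefSeq (GRCh38.p14), matched by symbol for 252 members and by older symbol for 11, and for 3 unmatched and 3 matched to protein-coding entries from the table. Exon lengths are unions of GENCODE exons (219 members). Named genes are up to 12 of the largest called changes each way with a mean of at least 20 counts. This took every such called member, 10 lower and 9 higher. Called pairs of neighbours, the 8 highest per kb and the tumour list were also named. Rarer called members, window genes and the examples so marked were named after their values were seen. Members, lists and tests were chosen with earlier results of these data known. Alternatives were DESeq2 1.42.0, its size factors, other filters, call rules and neighbour definitions, a replicate block and leaving out each library.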

Additional observations from a re-analysis of the deposited data

How the results depend on the processing

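The count of 26 called LINC genes was 26 with DESeq2 (24 shared, and 6 in place of 5 neighbours called in the same direction), 26 with its size factors in edgeR (26 shared), 26 without a filter (25 shared) and 27 when every gene with a mean of 5 counts was tested, the addition being LINC02274 (29, 11 and 9 counts against 2, 2 and 1, chosen after its values were seen). With a mean of at least 50 counts, 86 members were tested and 14 called, 7 higher and 7 lower, and neighbours called in the same direction numbered 2, since fewer genes were tested. Without a fold limit 30 were called and with a limit of 2-fold 21, with 3 neighbours. Neighbours within 50 kb numbered 2. Leaving out each library gave 21 to 28 calls and 2 to 4 neighbours. Replicate numbers did not pair the libraries (correlations of deviations 0.08, 0.04 and -0.01), and with the replicate block 24 were called, without LINC00239 and LINC00886. Leaving out a library also turned the sign of members that were not called, over ranges of -0.19 to 0.034 for LINC00511, -0.31 to 0.092 for LINC00632, -0.12 to 0.10 for LINC00839, -0.11 to 0.02 for LINC00888, -0.28 to 0.36 for LINC01004, -0.07 to 0.41 for LINC01291, -0.005 to 0.39 for LINC01293 and -0.78 to 0.012 for LINC01503. Of the fold changes of named genes under these alternatives, 572 kept direction and call, 37 lost the call and 10 reversed. The causes were not tested. Depth limits the 125 members with 5 to 20 counts most, of which 65 were not tested at all.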
